A study of Mus musculus with 23 samples.

Results

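Collagen genes were examined in the distal forelimb of E11.5 mouse embryos. Every gene whose symbol consists of Col, a number, the letter a and a second number was taken, which gave 44 of the 34682 genes listed for Inv1DelCTCF against Inv1. Inv1DelCTCF (2 libraries) is a CRISPR/Cas9 mutant that by its name joins inversion Inv1 to a deletion concerning CTCF, and Inv1 (3 libraries) carries the inversion alone, so both groups share it. The study moved a cluster of enhancers out of the Epha4 domain to a stretch rich in genes. The labels name G4 ESC, an embryonic stem cell line, beside every library and do not say whether a mutant stands for a single clone or whether libraries came from separate litters, so a p-value here reflects how these 5 libraries differ, which may be technical. The other 18 libraries of the series give no collagen value, since the tables of Inv1, Inv2, Inv3 and Inv4 against wild type list 72 to 79 genes and 0 of them are collagens.

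Collagens are extracellular proteins of several chains wound into a triple helix, in which glycine recurs at a fixed interval. Fibrillar collagens form the banded fibrils of mesenchyme, skin, tendon and cartilage, type IV collagens form the sheet under epithelia and around vessels, and the remaining classes decorate fibrils, form fine filaments or sit in the cell membrane. In the limb bud at this stage the mesenchyme condenses into the first cartilage models, where cells turn on the cartilage collagens, while the ectoderm and the vessels rest on basement membranes.

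The values are a mean normalised count over the 5 libraries, a log2 change, its standard error (SE) and an adjusted p per gene, all from the authors' deposited table. A value per library was not used here, and the depth of each library is unknown. The means add up to 3.02e+07 over all genes, and collagens hold 0.484% of that sum. The column headers do not name the numerator, so the direction of every change was worked out from the levels of Inv1 in the wild type tables, which rest on further libraries. Throughout, a positive log2 change is higher in Inv1DelCTCF, and a gene is called higher or lower at an adjusted p under 0.05. The level in each group was rebuilt from the mean and the log2 change. Markers of limb mesenchyme were all present, with means between 512.6 (Msx1) and 25893 (Prrx1) normalised counts by the authors' deposited table. The bone markers Ibsp and Bglap were listed at 0.

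The interstitial fibrillar and cartilage genes held most of the collagen RNA. Levels are given as mean normalised counts per kb of the longest annotated transcript. Col1a2 was highest at 5025, followed by Col2a1 at 3953, Col3a1 at 3065, Col4a1 at 2137 and Col9a1 at 1795 per kb. This order depended on the length used: per kb of all annotated exons Col2a1 came first, ahead of Col1a2, and Col4a1 came ahead of Col3a1. Col1a2 and Col1a1 encode the chains of type I collagen, Col2a1 the main fibril of cartilage, and Col4a1 a chain of the general basement membrane network. The next positions were held by Col18a1 (1451 per kb), Col1a1 (1232), Col4a2 (1225), Col5a2 (737.6) and Col9a2 (691.5). By summed normalised count, interstitial fibrillar genes held 42.8% of the collagen total, cartilage genes 23.8%, type IV genes 15.9% and the basement membrane zone genes Col18a1, Col15a1 and Col7a1 together 7.31%. Type VI and related genes held 3.15%, fibril-associated genes 2.70%, transmembrane genes 3.87% and the short-chain network genes Col8a1 and Col8a2 together 0.553%. Levels reached down to 0.444 per kb for Col6a4. Among the low ones were Col10a1 (1.31 per kb), a marker of hypertrophic cartilage, and Col4a3 (0.507 per kb) and Col4a4 (0.566 per kb), chains of specialised basement membranes such as that of the kidney glomerulus.

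**Figure D1:**
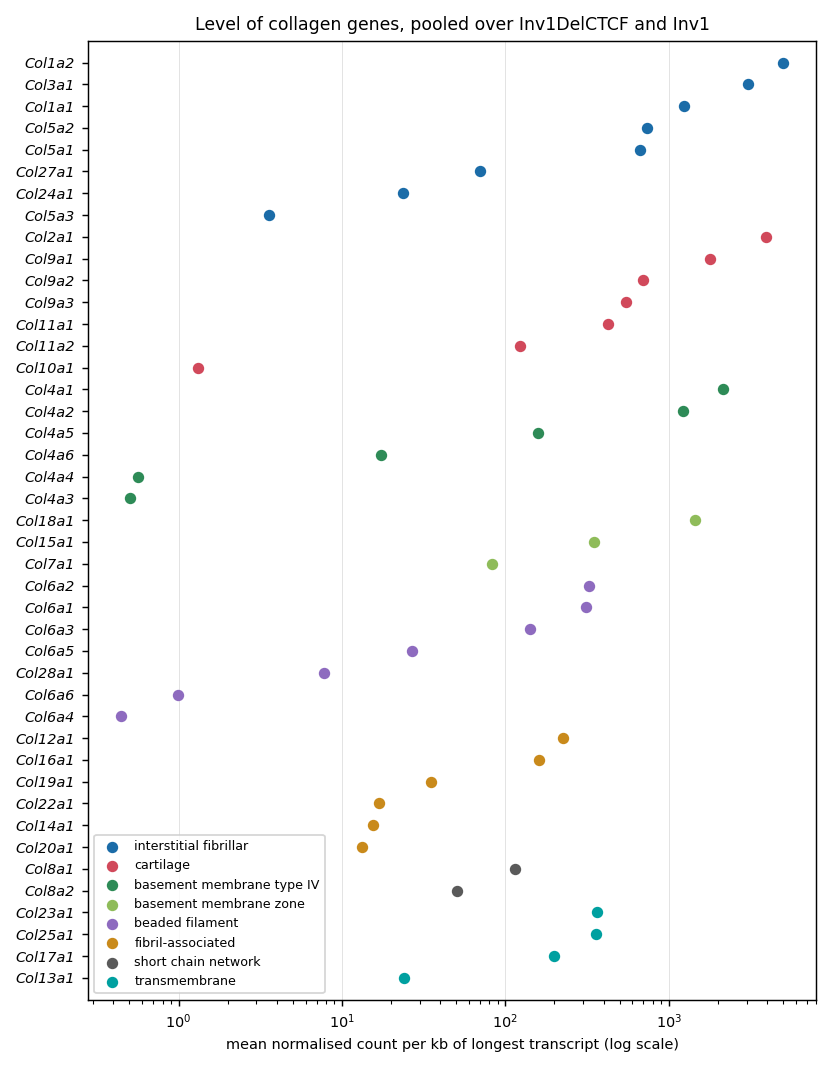
Level of the 43 collagen genes with a mean above 0, as mean normalised count per kb of the longest transcript on a log axis, pooled over Inv1DelCTCF and Inv1. Colours mark the classes, and Col1a2 at 5025 and Col2a1 at 3953 per kb lie farthest to the right.

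The classes differ in a repeat that can be read from the coding sequence. Counting runs of at least 5 codon triplets that each begin with a glycine codon (GGN) in the longest GENCODE coding sequence, Col1a1, Col5a1, Col11a1 and Col11a2 each held an unbroken run of 338 triplets. The runs of Col1a2, Col2a1 and Col5a2 had 339 triplets, that of Col3a1 344 and that of Col5a3 337. Col24a1 (216) and Col27a1 (217) had shorter runs. In the type IV genes the repeat was broken into 22 to 27 runs, with the longest at 66 triplets in Col4a2 and 40 in Col4a1. The 3 type IX genes shared a longest run of 113 triplets, and Col6a1 and Col6a2 shared 87 while Col6a3 had 45. In Col12a1 the repeat made up 8.10% of the codons, against 78.4% in Col4a1 and 73.3% in Col1a1.

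Most collagen genes outside the basement membrane had a positive log2 change in Inv1DelCTCF over Inv1, though few passed the test. Of the 33 members with an adjusted p by the authors' deposited table, 27 had a positive log2 change, which is 81.8%, against 46.9% of all 11218 genes with an adjusted p. The median log2 change was 0.24 over the 33 collagens and -0.01 over all those genes. Col6a3, Col12a1, Col11a1 and Col5a2 were called higher, and Col18a1 and Col4a1 were called lower. Of all genes, 3.81% were called higher and 7.89% lower, so the 4 of 33 collagens called higher make a larger share than among all genes, and the 2 of 33 called lower a slightly smaller one. At an unadjusted p under 0.05, 13 collagens were higher and 3 lower, where the shares over all genes were 10% and 16.1%. At other thresholds the collagens called higher and lower, each beside the share of all genes, were 3 (1.6%) and 1 (3.54%) at an adjusted p under 0.01, 7 (6.08%) and 3 (11.3%) at 0.1, and 2 (0.749%) and 0 (0.802%) with a log2 change of at least 0.5. They were 3 (1.37%) and 1 (2.83%) with every gene in the adjustment, 4 (2.57%) and 2 (5.2%) with genes of a mean of at least 10, and 4 (4.45%) and 2 (6.57%) after centring on the median gene. Fewer cells of a type and less RNA per cell cannot be told apart in such bulk samples. The remaining 11 members have no adjusted p: Col26a1 is listed at 0, and the other 10 have means between 3.27 and 99.9, below the limit of about 113 under which the authors gave none.

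**Figure D2:**
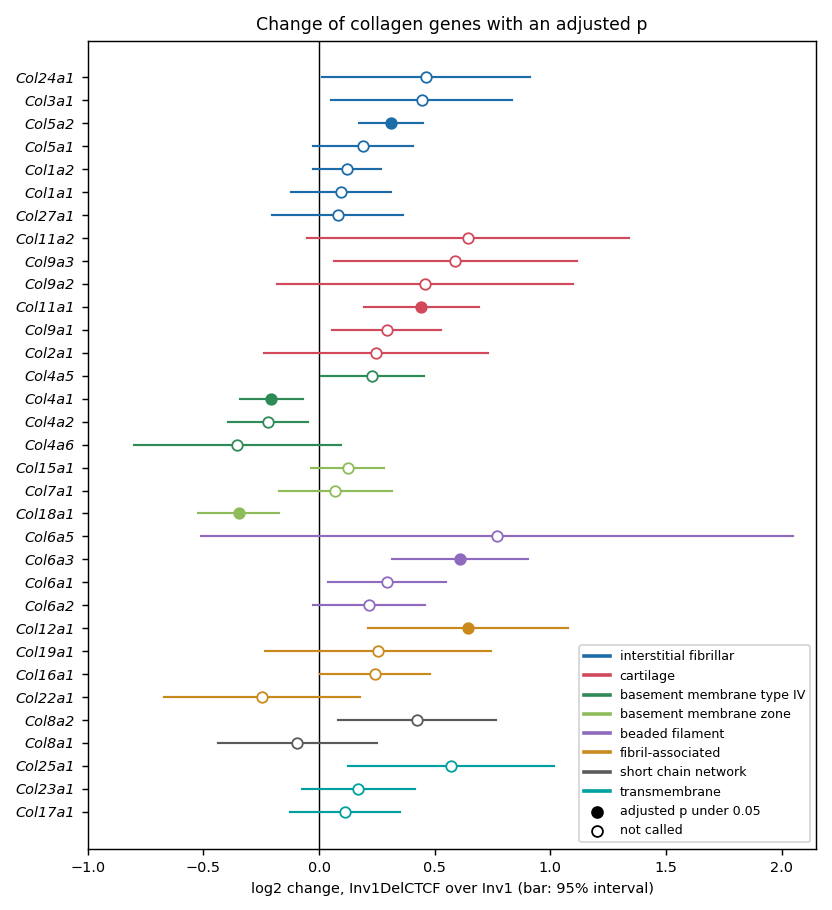
Log2 change of Inv1DelCTCF over Inv1 for the 33 collagen genes with an adjusted p, with 95% intervals from the deposited SE, ordered by class. Filled points were called, with Col5a2, Col11a1, Col6a3 and Col12a1 to the right of 0 and Col4a1 and Col18a1 to the left.

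All 7 interstitial fibrillar genes with an adjusted p had a positive log2 change, and 1 of them was called. That gene was Col5a2, a chain of the type V collagen that starts fibrils and sets their width. Its rebuilt level was 5534 normalised counts in Inv1DelCTCF, against 4455 in Inv1. The authors' deposited table put its log2 change at 0.31 (SE of 0.0707 and an adjusted p of 0.000646), which is 1.24-fold. Col5a1, the partner chain, had rebuilt levels of 6089 in Inv1DelCTCF and 5336 in Inv1, and a log2 change of 0.19 (SE of 0.110 and an adjusted p of 0.258) by the authors' deposited table. Col3a1, which forms fibrils of soft tissue and vessel walls and neighbours Col5a2 on chromosome 1, stood at 20274 in Inv1DelCTCF, against 14905 in Inv1. Its log2 change of 0.44 was larger than that of Col5a2 but carried an SE of 0.199 by the authors' deposited table and was not called (adjusted p = 0.127). The 2 type I genes lay close to 0: by the authors' deposited table Col1a1 had a log2 change of 0.09 (SE of 0.110 and an adjusted p of 0.621) and Col1a2 one of 0.12 (SE of 0.0746 and an adjusted p of 0.299). Their rebuilt levels were 7593 (Col1a1) and 28229 (Col1a2) in Inv1DelCTCF, against 7112 and 25972 in Inv1. Col24a1 and Col27a1, lowly expressed fibril-forming genes, had log2 changes of 0.46 and 0.08 by the authors' deposited table and were not called. The class median was 0.19.

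All 6 cartilage genes with an adjusted p also had a positive log2 change, with a class median of 0.45. Col11a1, whose product starts and thins the cartilage fibril, was called higher, with rebuilt levels of 3889 in Inv1DelCTCF and 2861 in Inv1. The authors' deposited table put its log2 change at 0.44 (SE of 0.127 and an adjusted p of 0.00950), or 1.36-fold. Col11a2, the second chain of that molecule, had a larger value of 0.64 with an SE of 0.355 by the authors' deposited table and was not called (adjusted p = 0.232). Col2a1, which supplies both the main fibril and the third chain of type XI, stood at 22267 in Inv1DelCTCF and 18781 in Inv1. With an SE of 0.246 its log2 change of 0.25 by the authors' deposited table was no larger than its error (adjusted p = 0.554). The type IX genes, whose products coat the cartilage fibril, had log2 changes of 0.29 for Col9a1 (SE of 0.120 and an adjusted p of 0.0907), 0.46 for Col9a2 (SE of 0.326 and an adjusted p of 0.378) and 0.59 for Col9a3 (SE of 0.267 and an adjusted p of 0.132) by the authors' deposited table. Their rebuilt levels were 7733, 2416 and 2082 in Inv1DelCTCF, against 6312, 1759 and 1384 in Inv1, in the same order of genes. Col10a1 had a mean of only 4.10 and no adjusted p. Markers of condensing cartilage stood beside this class, and their part in the result was not tested. Of 5 listed, 4 had an adjusted p and 0 were called, and 2 by the authors' deposited table had a positive and 2 a negative log2 change. Their summed rebuilt level was 8986 in Inv1DelCTCF and 8400 in Inv1, Acan and Matn4 lying higher and Hapln1 and Sox9 lower in Inv1DelCTCF, and none was at 0.

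Both collagens called lower were basement membrane genes. Col18a1, which encodes a heparan sulfate proteoglycan of basement membranes and the precursor of endostatin, stood at 6978 in Inv1DelCTCF, against 8882 in Inv1. The authors' deposited table put its log2 change at -0.35 (SE of 0.0889 and an adjusted p of 0.00297), which is 0.786 of the Inv1 level. Col4a1 stood at 12947 in Inv1DelCTCF, against 14933 in Inv1, and its log2 change was -0.21 (SE of 0.0688 and an adjusted p of 0.0305) by the authors' deposited table. Col4a2, whose product joins that of Col4a1 in 1 molecule, had nearly the same value of -0.22 by the authors' deposited table, but with an SE of 0.0887 it was not called (adjusted p = 0.0821). The call of Col4a1 also ended with every gene in the adjustment (adjusted p = 0.0584). Both calls ended when a trend in GC content and transcript length was subtracted: Col18a1 then had a log2 change of -0.13 (adjusted p = 0.490) and Col4a1 one of -0.03 (adjusted p = 0.873). Col15a1, related to Col18a1, and Col7a1, which makes the anchoring fibrils of skin, had log2 changes of 0.12 (SE 0.0807) and 0.07 (SE 0.124) by the authors' deposited table and were not called. Col4a5 and Col4a6, chains of a second type IV network, had log2 changes of opposite sign, 0.23 (SE of 0.114 and an adjusted p of 0.175) and -0.35 (SE of 0.228 and an adjusted p of 0.326) by the authors' deposited table, and neither was called. Markers of cells that rest on basement membranes were set beside these genes, and their part in these falls was not tested. Of 5 endothelial markers with an adjusted p, Cdh5 was called lower and 4 had a negative log2 change, with summed rebuilt levels of 6228 in Inv1DelCTCF and 6932 in Inv1. Of 6 ectodermal markers, Krt5 and Cdh1 were called lower and 5 were negative, with sums of 9289 in Inv1DelCTCF and 10820 in Inv1, and no marker of either list was at 0. Over all genes 7.89% were called lower and 53.1% were negative. The calls of Cdh5, Krt5 and Cdh1 also ended with the trend subtracted (adjusted p = 0.232, 0.239 and 0.0548).

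The type IV genes lie in head-to-head pairs, and the start regions of the 2 pairs with an adjusted p are shown. They were picked because the log2 changes of Col4a1 and Col4a2 were alike and those of Col4a5 and Col4a6 differed in sign. Neither Col4a5 nor Col4a6 was called, and Col4a6 had a mean of 115.1, close to the limit of about 113. Whether a start region bears on a change was not tested. Each window runs from 250 bases before to 50 bases after the start annotated by RefSeq (GRCm38.p6), 5′ to 3′ on the gene's own strand. The annotated starts of Col4a1 (chr8:11312777-11313076, minus strand) and Col4a2 (chr8:11312555-11312854, plus strand) are 21 bases apart and their windows share 78 bases. These 2 genes overlap here: each start lies within the other gene, as do the 250 bases before it. The starts of Col4a6 (chrX:141474027-141474326, minus strand) and Col4a5 (chrX:141475169-141475468, plus strand) are 1343 bases apart, and those 2 genes do not overlap. Capitals mark the TATA-box letters TATAAA, the box known by its letters CCAAT and the GC-box letters GGGCGG, read on either strand.
Col4a1: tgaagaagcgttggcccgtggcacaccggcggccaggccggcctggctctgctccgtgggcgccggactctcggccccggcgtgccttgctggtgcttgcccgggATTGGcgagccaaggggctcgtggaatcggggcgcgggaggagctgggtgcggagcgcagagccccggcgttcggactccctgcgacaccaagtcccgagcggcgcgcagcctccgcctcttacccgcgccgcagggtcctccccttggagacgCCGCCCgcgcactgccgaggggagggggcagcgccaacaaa
Col4a2: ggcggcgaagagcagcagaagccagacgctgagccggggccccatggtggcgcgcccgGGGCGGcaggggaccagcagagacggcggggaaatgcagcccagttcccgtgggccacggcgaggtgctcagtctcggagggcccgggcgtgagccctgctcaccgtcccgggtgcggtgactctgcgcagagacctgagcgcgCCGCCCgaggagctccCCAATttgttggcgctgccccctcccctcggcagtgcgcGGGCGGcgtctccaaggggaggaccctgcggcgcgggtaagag
Col4a6: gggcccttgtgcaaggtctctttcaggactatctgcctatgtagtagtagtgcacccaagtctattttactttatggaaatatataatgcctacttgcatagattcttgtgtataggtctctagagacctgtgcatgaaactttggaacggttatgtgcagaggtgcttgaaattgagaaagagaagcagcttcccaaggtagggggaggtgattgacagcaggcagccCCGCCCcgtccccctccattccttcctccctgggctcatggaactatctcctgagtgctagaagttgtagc
Col4a5: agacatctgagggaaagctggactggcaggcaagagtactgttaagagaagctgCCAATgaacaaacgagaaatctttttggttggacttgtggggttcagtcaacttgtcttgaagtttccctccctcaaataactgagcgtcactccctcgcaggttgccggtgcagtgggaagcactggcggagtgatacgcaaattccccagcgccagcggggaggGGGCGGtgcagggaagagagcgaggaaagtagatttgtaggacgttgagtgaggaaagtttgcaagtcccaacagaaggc
The Col4a1 window held 1 CCAAT and 1 GGGCGG, the Col4a2 window 1 and 3, the Col4a6 window 0 and 1, and the Col4a5 window 1 and 1. The GGGCGG of Col4a1 and 1 of the 3 of Col4a2 are the same site, read on opposite strands. It lies in the 78 shared bases, which count toward both windows. None of the 4 windows held TATAAA. GC content was 74.0% and 73.7% in the Col4a1 and Col4a2 windows, against 48.3% and 52.7% in those of Col4a6 and Col4a5.

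Type VI collagen forms beaded filaments around cells. Col6a3, its largest chain, was called higher, with rebuilt levels of 1801 in Inv1DelCTCF and 1179 in Inv1. The authors' deposited table put its log2 change at 0.61 (SE of 0.150 and an adjusted p of 0.00187), or 1.53-fold. The obligate partners Col6a1 and Col6a2 stood at 1443 and 1742 in Inv1DelCTCF, against 1177 and 1499 in Inv1. They had log2 changes of 0.29 (SE of 0.130 and an adjusted p of 0.122) and 0.22 (SE of 0.124 and an adjusted p of 0.251) by the authors' deposited table and were not called. Col6a5, an alternative to the Col6a3 chain, had the highest value of all 33, 0.77, with an SE of 0.653 by the authors' deposited table (adjusted p = 0.472). The other alternatives Col6a4 and Col6a6 had means of 3.27 and 8.67 by the authors' deposited table and no adjusted p.

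Among the fibril-associated genes, whose products sit on the surface of fibrils, Col12a1 was called higher. It stood at 3308 in Inv1DelCTCF, against 2116 in Inv1, and the authors' deposited table put its log2 change at 0.64 (SE of 0.221 and an adjusted p of 0.0361), or 1.56-fold. That call ended, with an adjusted p of 0.0687, when every gene with a p entered the adjustment. Col14a1, its closest relative and like it a gene of tendon and fascia, had a larger log2 change of 1.45 by the authors' deposited table, but with a mean of 99.9 and an SE of 0.815 it has no adjusted p. Its rebuilt level was 161.1 in Inv1DelCTCF, against 59.1 in Inv1. Col16a1 had a log2 change of 0.24 (SE of 0.121 and an adjusted p of 0.181) and Col19a1 one of 0.25 (SE 0.249) by the authors' deposited table. Col22a1, known from junctions of muscle and tendon, had a log2 change of -0.25 (SE 0.217) by the authors' deposited table.

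The transmembrane and short-chain genes held no call. Col25a1, whose product is needed for motor nerves to reach muscle, stood at 2989 in Inv1DelCTCF, against 2014 in Inv1, and its log2 change was 0.57 (SE of 0.227 and an adjusted p of 0.0790) by the authors' deposited table. Col23a1 and Col17a1, Col17a1 being a component of the hemidesmosomes that fix epithelium to its basement membrane, had log2 changes of 0.17 (SE 0.124) and 0.11 (SE 0.122) by the authors' deposited table. Col8a2 had a log2 change of 0.43 (SE of 0.174 and an adjusted p of 0.0897) and its partner Col8a1 one of -0.09 (SE of 0.175 and an adjusted p of 0.779) by the authors' deposited table. The 10 low members with a mean above 0 were Col14a1, Col13a1, Col20a1, Col28a1, Col5a3, Col6a6, Col4a4, Col4a3, Col10a1 and Col6a4, and 8 had a positive log2 change, with SE values between 0.306 and 1.58 and a lowest unadjusted p of 0.0610 by the authors' deposited table.

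Chains that assemble into 1 molecule can be set side by side. On the log2 scale the change of Col1a1 minus that of Col1a2 was -0.03, with an error of 0.133 from both SE values, and that of Col4a1 minus Col4a2 was 0.01 with an error of 0.112. The change of Col6a3 exceeded that of Col6a1 by 0.32 (error 0.198) and that of Col6a2 by 0.39 (error 0.194). Col8a1 lay below Col8a2 by a difference of -0.52 (error 0.247) and Col4a6 below Col4a5 by -0.58 (error 0.255). Each error treats the 2 genes as independent, which cannot be checked without values per library, so no p is given. The levels of partner chains were near equal in some molecules and unequal in others. Per kb, Col1a1 stood at 0.245 of Col1a2, although the type I molecule holds more of the Col1a1 chain, and at 0.257 per kb of coding sequence and 0.515 per kb of all annotated exons. The level of Col4a1 was 1.74 times that of Col4a2 per kb, and that of Col9a1 was 2.60 times that of Col9a2. Col6a1 stood at 0.964 of Col6a2 and Col5a1 at 0.909 of Col5a2 per kb of the longest transcript. Both orders depended on the length used, with ratios of 1.53 and 1.30 per kb of all annotated exons.

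**Figure D3:**
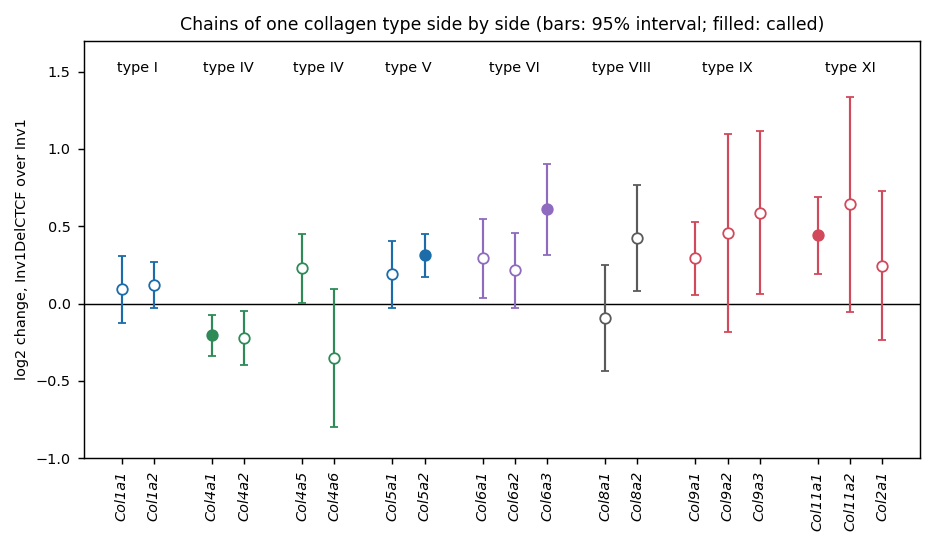
Log2 change of Inv1DelCTCF over Inv1 for chains grouped by collagen type, with 95% intervals and filled points for called genes. The type I chains lie together near 0.1 and Col4a1 and Col4a2 near -0.2, while Col8a1 and Col8a2 lie apart by 0.52.

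The spread between libraries was wide for many collagens. For each gene with a mean of at least 10, its SE was divided by the median SE of the 201 genes nearest to it in mean count. The ratio was above 1 in 30 of the 33 collagens with an adjusted p and above 2.5 in 8 of them. Its median was 1.44 over these collagens and 1 over all genes with an adjusted p. The share of all genes above 2.5 was not worked out. The cartilage class had a median ratio of 3.23. Single ratios were 4.08 for Col9a2, 3.95 for Col2a1, 3.82 for Col6a5, 3.27 for Col11a2, 3.19 for Col9a3 and 3.08 for Col3a1, followed by Col25a1 at 2.95 and Col12a1 at 2.89. In contrast Col5a2 (1.06), Col4a1 (1.08) and Col15a1 (0.983) varied like other genes of their level. Outside the collagens, 4 of 12 cartilage partners with a ratio were above 2.5, Matn4 (4.70), Acan (4.29), Sox6 (2.96) and Lect1 (2.65), and the median of that list was 1.23. Of 12 fibril-binding genes, Kera (4.57), Ogn (3.69), Lum (3.47) and Dcn (2.95) were above 2.5, and the median was 1.53. Lox (3.68) among 7 cross-linking genes and P4ha1 (3.41) among 17 of chain modification were also above it, and none in the remaining companion lists. Among markers of other cell types, Myog (4.26) and Msx1 (3.40) were above it too. Col2a1, the second highest collagen per kb, had an SE of 0.246 by the authors' deposited table, while the likewise abundant Col1a2 and Col4a1 had SE values of 0.0746 and 0.0688. Col5a2, which was lower in level than these, had an SE of 0.0707. Which libraries lie apart was not tested, since no value per library was used.

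**Figure D4:**
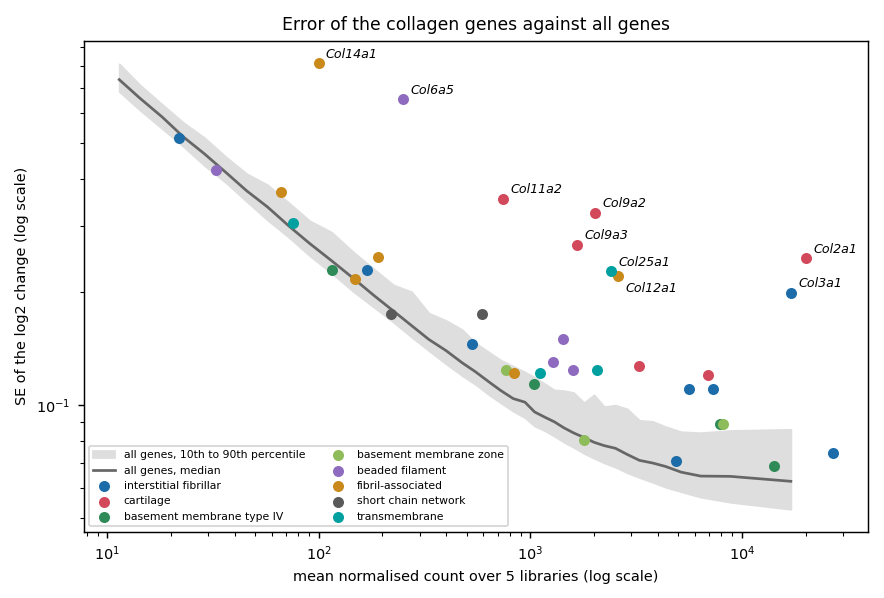
SE of the log2 change against the mean normalised count over 5 libraries, both on log axes, for collagens with a mean of at least 10. The grey band spans the 10th to 90th percentile of all genes, and Col2a1, Col3a1 and the type IX and XI genes Col9a2, Col9a3 and Col11a2 lie above it.

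The GC content of a transcript moved with the log2 change across all genes, and the collagens had a positive median in each GC band that held any. By the authors' deposited table, genes with 60% GC or more had a median log2 change of -0.25 and 27.6% of them were called lower, while genes under 45% GC had a median of 0.09. Collagens with an adjusted p ranged from 45.9% to 62.9% GC with a median of 55.7%, against 49.7% for all genes. In the band of 60% or more, the 7 collagens had a median log2 change of 0.24, and in the band of 55% to 60% the 12 collagens had one of 0.15 where all genes had -0.15. With the trend in GC content and length subtracted, 10 collagens were called higher against 1.94% of all genes, and 0 were called lower against 1.64%. All 4 genes called higher before were among the 10. The 6 added were Col16a1 (log2 change 0.47, adjusted p = 0.00817), Col8a2 (0.61, adjusted p = 0.0211), Col5a1 (0.38, adjusted p = 0.0245), Col1a2 (0.25, adjusted p = 0.0286), Col6a1 (0.44, adjusted p = 0.0307) and Col15a1 (0.27, adjusted p = 0.0322), all after subtraction. What gave rise to the trend was not tested.

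**Figure D5:**
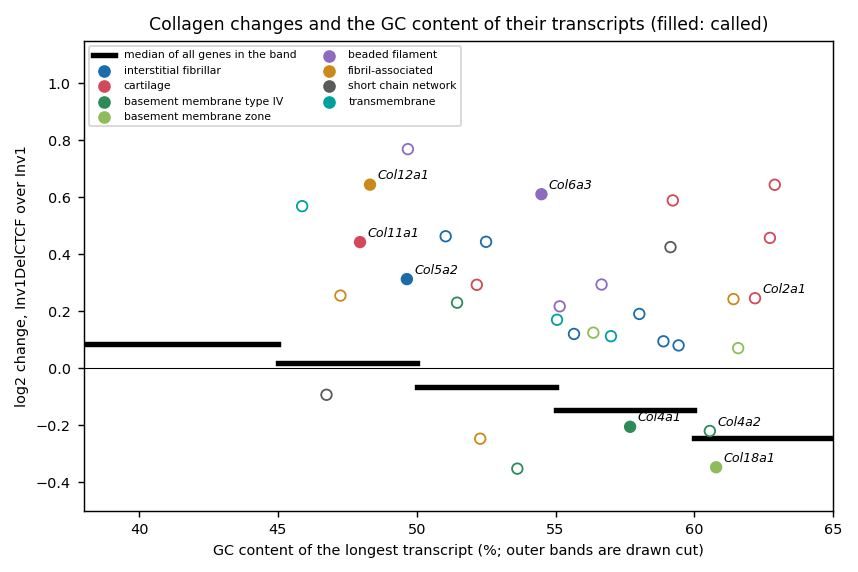
Log2 change of Inv1DelCTCF over Inv1 against the GC content of the longest transcript for the 33 collagens, filled where called, with black bars for the median of all genes in each GC band. The bars step down from 0.09 under 45% GC to -0.25 at 60% or more, and 27 of the 33 collagens lie above 0.

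On chromosome 1, where Epha4 lies, there are 7 collagens, and 2 of the 5 with an adjusted p were called higher, Col5a2 and Col6a3. Of all genes of that chromosome, 3.79% were called higher and 6.43% lower. The other 2 called higher lie elsewhere, Col11a1 on chromosome 3 and Col12a1 on chromosome 9.

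By the deposited adjusted p, genes that make, secrete, cross-link and bind collagen were called about as often as all genes. Of 104 companion genes listed in 8 groups, 79 had an adjusted p, and 11.4% of these were called either way, against 11.7% of all genes. The calls were 5 higher (6.33%) and 4 lower (5.06%), where 3.81% and 7.89% of all genes were. With the trend in GC content and length subtracted, 5 of 78 were higher and 0 lower, against 1.94% and 1.64% of all genes. Among enzymes and chaperones of the chain, P4ha3, a subunit of a prolyl hydroxylase, was called higher at 0.65 (SE of 0.225 and an adjusted p of 0.0396) and P3h3, a prolyl 3-hydroxylase, at 0.20 (SE of 0.0731 and an adjusted p of 0.0484) by the authors' deposited table, and 0 of 17 were called lower. Serpinh1, the collagen chaperone, had a log2 change of -0.20 (SE of 0.0749 and an adjusted p of 0.0571) and Plod2, a lysyl hydroxylase, one of 0.19 (adjusted p = 0.177) by the authors' deposited table. None of 9 genes of export and propeptide cleavage, 6 of cross-linking and 8 of collagen receptors were called. The lysyl oxidase Lox, which cross-links fibrils, had a log2 change of 0.64 with an SE of 0.487 by the authors' deposited table (adjusted p = 0.412).

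All 11 fibril-binding genes with an adjusted p had a log2 change above 0, with a median of 0.35, and 2 were called. Postn, which encodes periostin, was higher by 0.73 (SE of 0.184 and an adjusted p of 0.00251) and Fn1, fibronectin, by 0.20 (SE of 0.0531 and an adjusted p of 0.00470) by the authors' deposited table. Thbs1 had a log2 change of 0.34 (adjusted p = 0.0635) and Dcn, decorin, one of 0.93 (SE of 0.451 and an adjusted p of 0.166) by the authors' deposited table. Among partners of the basement membrane, the laminin genes Lama5 at -0.40 (adjusted p = 0.00500) and Lama1 at -0.46 (adjusted p = 0.0364) and the perlecan gene Hspg2 at -0.28 (adjusted p = 0.0405) were called lower, and Lama2, a laminin chain of muscle, higher at 0.46 (adjusted p = 0.0219) by the authors' deposited table. Those 3 falls also ended with the trend in GC content and length subtracted, while Lama2 stayed called at 0.49 (adjusted p = 0.0280). Of 6 genes of collagen degradation, the membrane protease gene Mmp15 was called lower at -0.38 (adjusted p = 0.00595) by the authors' deposited table, and that call too ended with the trend subtracted (log2 change -0.18, adjusted p = 0.376). The cartilage partners had 0 calls among 9 genes and a median of 0.28, and 7 were positive. Sox9, the regulator that switches on Col2a1 and Col11a2, had a log2 change of -0.05 (SE of 0.0981 and an adjusted p of 0.806) by the authors' deposited table, and Acan, Matn4 and Matn2 had ones of 1.56 (SE of 0.683 and an adjusted p of 0.115), 1.12 (SE of 0.498 and an adjusted p of 0.122) and 0.45 (SE of 0.230 and an adjusted p of 0.188).

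Markers of further cell types were set beside these changes, and their part in them was not tested. Of 6 muscle precursor markers, 4 had an adjusted p and 0 were called, 2 of these 4 having a positive and 2 a negative log2 change. Their summed rebuilt levels, over all 6, were 2767 in Inv1DelCTCF and 2193 in Inv1. Most of that difference lay in Myog, at 1518 in Inv1DelCTCF and 1033 in Inv1, whose log2 change of 0.56 had an SE of 0.391. Of 6 macrophage and blood markers, the globin genes Hba-x and Hbb-bh1 were called lower, and the sums were 33521 in Inv1DelCTCF and 43522 in Inv1. With the trend subtracted both globin genes stayed called lower (adjusted p = 0.0418 and 0.0316), and Csf1r was called higher (adjusted p = 0.0397). The 4 Schwann precursor markers summed to 397.4 in Inv1DelCTCF and 277.5 in Inv1, and none of these 3 lists had a marker at 0. Of 10 limb mesenchyme markers, Hoxd12, Hoxa13 and Lhx2 were called lower and 0 higher (0 either way with the trend subtracted), with sums of 77235 in Inv1DelCTCF and 78621 in Inv1. Over all genes 3.81% were called higher and 7.89% lower, and with the trend subtracted 1.94% and 1.64%. Those of bone, with Ibsp and Bglap at 0, summed to 95.2 in Inv1DelCTCF and 112.4 in Inv1, and the hindlimb genes Tbx4 and Pitx1 to 612.2 in Inv1DelCTCF and 694.3 in Inv1.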

How the data were processed

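RNA of distal forelimbs was sequenced, and the authors' comparison tables were analysed. Per the submitters' processing notes, STAR and DESeq2 were used with mouse build mm9, without versions. Per the file headers, each deposited table gives a mean normalised count (a signal pooled over the libraries of a fit), a log2 fold change, its SE, a Wald score, a p-value and an adjusted p-value. Adjusted p-values are those of the authors' DESeq2 Wald test, given for genes with a mean of about 113 or more. The counting step, its strand setting and its annotation are not given in the sources used here, so overlapping antisense reads cannot be told apart.

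The headers do not name the numerator. From the wild type tables, Inv1 levels were rebuilt for 49 genes whose mean was 300 or more. The median residual against the Inv1DelCTCF table was 0.0124 on the log2 scale when positive means higher in Inv1 there, and 0.107 or more otherwise, so the sign was turned. Rebuilt levels take the fold as the ratio of the means of 2 and 3 libraries.

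Lengths, GC content and coding sequences came from GENCODE M21 (GRCm38, not the authors' build, so used by gene name), found for 96.8% of tested genes and all 44 collagens. Start regions came from RefSeq, which had 38 windows for 35 collagens. The trend in GC content and log2 length had terms to the cube and their product, weighted by the inverse of the SE. Steps across genes were tested on simulated data.

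Named were all called collagens, the 2 highest per kb of each class, chains that assemble with a called chain, 8 fixed collagens, up to 4 companion genes per list by adjusted p, and Sox9, Serpinh1 and Lox. Members, classes and lists were chosen with earlier results of these data known. Other members were named to complete a class, and marker genes, Kera, Ogn, Lum, Sox6, Lect1 and P4ha1 to describe a list or an error, after their values were seen. Alternatives covered the threshold, the adjustment, a minimum change, centring, the trend and the length. Python 3.11.15, numpy 2.4.6, pandas 2.3.3, SciPy 1.17.1 and matplotlib 3.10.9 were used.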

Additional observations from a re-analysis of the deposited data

How the results depend on the processing

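The 4 collagens called higher became 7 at an adjusted p under 0.1, 10 with the GC and length trend subtracted and 2 with a log2 change of at least 0.5. The 2 called lower became 1 at 0.01, 1 with every gene in the adjustment and 0 with a log2 change of at least 0.5. With the trend subtracted 0 were called lower by the Wald test, and 0 of 33 were lower at an unadjusted p under 0.05. At that limit 25 were higher, but the share of all genes was not worked out there, so this count has no background. Companion genes called higher and lower were 3 and 2 with every gene in the adjustment, where the shares of all genes were 1.37% and 2.83%. With the trend subtracted 5 of 78 companion genes were called higher and 0 lower, against 1.94% and 1.64% of all genes. At an unadjusted p under 0.05 without the trend 2 of them were lower, again with no share of all genes to set beside it. Without the trend, class medians of the log2 change were 0.36 for interstitial fibrillar, -0.017 for type IV, 0.27 for basement membrane zone, 0.60 for type VI and related and 0.29 for transmembrane genes. Over every member with a log2 change, low ones included, the medians were 0.012 for type IV and 0.29 for type VI and related genes, and at a mean of at least 10 that of type VI and related genes was again 0.29. Centring on the median of all genes, -0.01, moved no call of a collagen named by the rule. The 10 collagens highest per kb shared 8 with the order per coding length and 9 with that per exon length. Causes of these moves were not tested. Leaving out a library was not run, and no paired analysis was possible because the tables give no value per library.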

Other observations

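Col26a1 is listed at 0, while Emid2, an older RefSeq synonym of the same gene, is listed with a mean of 13.5 normalised counts in the authors' deposited table. The rebuilt level of Emid2 was 9.44 in Inv1DelCTCF and 16.2 in Inv1, and its log2 change of -0.78 had an SE of 0.678. The 0 of Col26a1 is thus no measure of that gene.

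Among 38 start windows of 300 bases for 35 collagens, GGGCGG on either strand was in 23, or 60.5%, against 35.7% of all 32851 windows. CCAAT was in 34.2% of the collagen windows and in 37.4% of all, and TATAAA in 13.2% and 13.6%. These shares describe letters in a window, and no difference between them was tested.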
